A study of Mus musculus with 6 samples.

Results

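Cholesterol synthesis was followed in cultured mouse female germline stem cells (FGSCs) through 8 genes, namely Hmgcs1, Idi1, Fdps, Fdft1, Sqle and Lss, which encode enzymes of the pathway, and Srebf2 and Insig1, which encode its transcriptional regulator and an inhibitor of that regulator. They were chosen by name as cholesterol synthesis genes and targets of SREBP2, with earlier results of these data known. All 8 were found among the 24732 gene symbols of the FPKM table. FPKM is the number of sequenced fragments scaled to transcript length and to sequencing depth. RNA-seq was compared between 3 control samples and 3 samples in which CTCF, a DNA-binding protein that organizes chromatin loops, was knocked down with a lentiviral short hairpin RNA and puromycin selection (shCTCF group). Cells of both groups were of strain C57BL/6, had been passaged more than 20 times, and were grown on inactivated STO fibroblast feeder cells in medium with serum, LIF, EGF, bFGF and GDNF. What the control cells received is not given in the sources used here, nor whether the samples of a group came from separate cultures, so the p-values measure only the spread between these samples.

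Cells make cholesterol from acetyl-CoA through mevalonate, isoprenoid diphosphates, squalene and lanosterol. The transcription factor SREBP2, the product of Srebf2, is made as a membrane precursor in the endoplasmic reticulum, where SCAP escorts it and INSIG proteins hold it back when sterols are abundant. When sterols are scarce the precursor moves to the Golgi, is cut by the site-1 and site-2 proteases, and the released part switches on the enzymes of the pathway, Insig1 and Srebf2 itself.

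The samples held 1686052 counts in control replicate 2 and 5322636 to 7044272 in the other 5. Ctcf fell from 55.9 ± 2.34 FPKM in the control group (SD, n = 3) to 0.640 ± 0.0956 in the shCTCF group (SD, n = 3). No fragment was counted for Ctcf in any sample, so this fall of the transcript rests on FPKM alone. The authors also assessed the knockdown at the protein level, by western blot. Most of the listed markers of the labelled cell type were scarce or absent among the transcripts. Of 8 germline markers, 7 (Ddx4, Dazl, Pou5f1, Dppa3, Gfra1, Prdm1 and Dnd1) stayed under 1 FPKM in all 6 samples, and the sum of the 8 was 0.0694 to 1.27 FPKM in the control samples and 11.3 to 12.2 in the shCTCF samples, where Ifitm3 made up most of it. Of 10 leukocyte and mast cell markers, 8 were above 1 FPKM in at least 1 sample. Itgam stayed under 1 FPKM and Fcer1a was listed at 0 in all 6 samples. The sum of the 10 was 1285 to 1329 FPKM in the control group and 1669 to 1743 in the shCTCF group. Kit was its largest part (574.9 ± 35.8 and 786.5 ± 14.4 FPKM), but had only 0 to 3 counts per sample. The markers did not move as a set. Kit, Laptm5 and Cd68 were higher, Cpa3 (280.7 ± 56.7 and 88.0 ± 13.1 FPKM) and Cd48 were lower, and 3 did not pass. Fibroblast markers summed to 10.1 to 10.8 FPKM and 8.62 to 8.97 FPKM, with Col1a1, Col1a2 and Col3a1 under 1 FPKM. Of the 10 listed, 4 could be tested on FPKM, and they moved both ways. Pdgfrb (6.09 ± 0.799 to 2.16 ± 0.146 FPKM) and Dcn (2.71 ± 0.107 FPKM to a listed 0) were lower. Pdgfra (1.13 ± 0.530 to 4.16 ± 0.209 FPKM) and Thy1 (0.382 ± 0.219 to 2.02 ± 0.123 FPKM) were higher. The germline name is therefore used below only as a label, and the part of these marker differences in the results that follow was not tested.

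The promoters are shown because SREBP proteins act on short promoter motifs. The RefSeq promoter table (GRCm38.p6) held 5 of the 8 genes (not Fdps, Fdft1 or Sqle), and the 250 bases before the annotated start of 4 of them are given 5′ to 3′ on the strand of the gene, which is the plus strand for each. Capitals mark TCACCCCA (letters inside a known sterol regulatory element), CACGTG (an E-box) and CCAAT (the NF-Y box), each searched on both strands, so that a CCAAT on the other strand reads ATTGG. They lie at chr15:82147019-82147268 (Srebf2), chr5:28071162-28071411 (Insig1), chr13:119690101-119690350 (Hmgcs1) and chr10:76531355-76531604 (Lss).
Srebf2: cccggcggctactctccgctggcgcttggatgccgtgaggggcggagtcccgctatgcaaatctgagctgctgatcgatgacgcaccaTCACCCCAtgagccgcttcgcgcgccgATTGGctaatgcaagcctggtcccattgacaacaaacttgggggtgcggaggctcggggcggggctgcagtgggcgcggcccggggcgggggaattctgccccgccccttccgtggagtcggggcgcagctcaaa
Insig1: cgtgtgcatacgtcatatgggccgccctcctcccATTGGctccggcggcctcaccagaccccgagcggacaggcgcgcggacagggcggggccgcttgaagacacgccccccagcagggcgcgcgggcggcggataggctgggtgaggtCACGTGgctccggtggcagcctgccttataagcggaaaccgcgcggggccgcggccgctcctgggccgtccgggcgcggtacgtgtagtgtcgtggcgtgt
Hmgcs1: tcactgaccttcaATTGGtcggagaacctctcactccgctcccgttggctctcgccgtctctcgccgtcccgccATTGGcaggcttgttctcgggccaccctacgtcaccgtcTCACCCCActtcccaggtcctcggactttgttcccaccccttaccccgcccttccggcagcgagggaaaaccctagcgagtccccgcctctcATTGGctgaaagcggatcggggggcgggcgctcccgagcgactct
Lss: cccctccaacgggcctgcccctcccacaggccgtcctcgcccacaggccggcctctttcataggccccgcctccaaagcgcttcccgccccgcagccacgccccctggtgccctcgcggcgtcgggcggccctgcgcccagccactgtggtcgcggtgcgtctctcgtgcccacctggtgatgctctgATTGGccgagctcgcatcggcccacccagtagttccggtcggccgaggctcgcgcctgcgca
TCACCCCA was found from 162 to 155 bases before the start of Srebf2 and from 137 to 130 bases before that of Hmgcs1, and was absent from these windows of Insig1, Idi1 and Lss. It was present in 1.34% of all 32851 promoters in the table. CACGTG was found in 1 of the 5 genes, Insig1, and in 6.02% of all promoters. CCAAT was found in 5 of 5 and in 33.8% of all promoters, and the GC box GGGCGG (left in lower case) also in 5 of 5 and in 32.7%. These motifs were chosen after the sequences had been seen. Srebf2 and Hmgcs1, which share TCACCCCA, were both lower in the shCTCF group on FPKM, although the direction for Hmgcs1 depended on the processing. TCACCCCA was absent from the same windows of all 13 other enzymes of the pathway listed below. Among those, Lbr and Cyp51 fell and Hsd17b7 rose. Whether the motif bears on the direction of change was not tested. The 5 genes that share CCAAT and GGGCGG did not move together. Insig1 was higher, and Idi1 and Lss did not pass the test on FPKM, as described next.

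On the FPKM table, 5 of the 8 genes fell in the shCTCF group (Srebf2, Fdps, Sqle, Fdft1 and Hmgcs1), 1 rose (Insig1) and 2 did not pass the threshold (Idi1 and Lss; limma on log2(FPKM + 1), Benjamini-Hochberg adjusted p under 0.05). Most genes differed between the groups. Of the 9976 genes tested, 73% passed the same threshold, 44.2% being lower and 28.8% higher, so 6 of 8 lies near the background. On FPKM the sizes were further from it, in a set that was chosen with earlier results of these data known. Srebf2, Fdps and Fdft1 passed as lower and fell by more than 1 on the log2 scale, as did 14.9% of all genes tested. Of these 3 genes, Fdps and Fdft1 could not be checked on counts. The median log2 fold change of the 8 genes was -0.90 against -0.17 over all genes. With only the highest row per symbol, these medians were -0.56 and -0.18. Without shCTCF replicate 1 only 3 of the 8 genes passed as lower, because Hmgcs1 and Fdft1 no longer did. The control and shCTCF samples did not overlap in FPKM for any of the 8 genes, and the same held for 76.6% of all genes tested. Less transcript per cell and fewer cells that carry it cannot be told apart in these bulk samples.

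**Figure D1:**
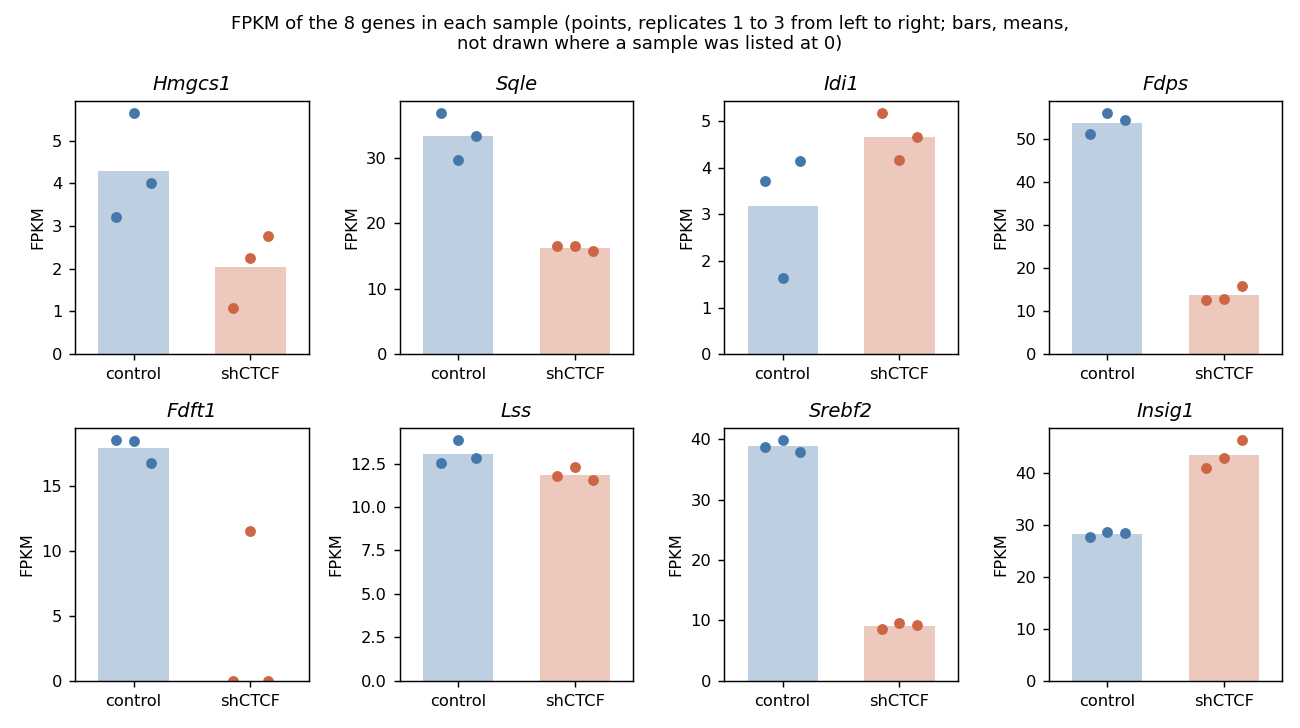
FPKM (vertical axes, each starting at 0) of the 8 genes in the 3 control samples and the 3 shCTCF samples; points are samples and bars are group means. Srebf2, Fdps and Sqle show a clear gap downwards and Insig1 a clear gap upwards, while Fdft1 was listed at 0 in shCTCF replicates 1 and 3 and Lss barely separated.

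On the count table, which holds whole fragments per transcript, 5 of the 8 genes had enough counts for a test. Of these, Srebf2 and Sqle were lower, Insig1 and Idi1 were higher, and Lss did not pass (edgeR quasi-likelihood test, Benjamini-Hochberg adjusted p under 0.05). Over all 7341 genes tested, 69.1% passed, 34.8% higher and 34.3% lower. Of the 5 genes, only Srebf2 passed as lower with a fall of more than 1 on the log2 scale, as did 14% of all genes tested on counts. The median of the 5 genes was 0.07 and that of all genes -0.02. The groups did not overlap in CPM (counts scaled to library size) for 4 of the 5 genes, Lss being the exception, and for 71.3% of all genes.

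Srebf2, the gene of the regulator itself, had the lowest adjusted p of the 8 genes on both tables. It (chr15:81977699-82035390 in mm9, plus strand, 19 exons) had 38.7, 39.9 and 37.9 FPKM in control replicates 1 to 3 and 8.56, 9.65 and 9.27 FPKM in shCTCF replicates 1 to 3. Every shCTCF sample lay far under every control sample, and the spread inside each group was small. The mean was 4.24-fold lower, at 9.16 ± 0.555 against 38.8 ± 0.997 FPKM (SD over 3 samples in each group), a log2 fold change of -1.97 (SE 0.07, 95% interval -2.15 to -1.80, limma adjusted p = 3.6e-07). Only 1.95% of the genes tested had a lower log2 fold change. The counts showed the same step, from 2114, 554 and 2194 in the control samples to 426, 433 and 552, or from 304 ± 5.43 to 83.7 ± 4.69 CPM. The log2 fold change on counts was -1.86 (SE 0.08, edgeR adjusted p = 1.1e-09).

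Insig1, whose product retains the SCAP and SREBP complex in the endoplasmic reticulum, moved the other way although it is itself a target of SREBP2. Insig1 (chr5:28397952-28405202, plus strand, 5 exons) had 27.8, 28.6 and 28.5 FPKM in the control samples and 41.1, 42.9 and 46.5 FPKM in the shCTCF samples, without overlap. The mean rose 1.54-fold, from 28.3 ± 0.477 to 43.5 ± 2.77 FPKM, with a log2 fold change of 0.60 (SE 0.07, 95% interval 0.44 to 0.76, limma adjusted p = 1.3e-04). On counts it rose from 139 ± 0.759 to 243 ± 11.9 CPM (log2 fold change 0.80, SE 0.07, edgeR adjusted p = 1.4e-06). The FPKM ratio of Insig1 to Srebf2, which does not depend on the depth scaling, was 0.718, 0.718 and 0.751 in the control samples and 4.80, 4.45 and 5.02 in the shCTCF samples. In the control group the activator transcript was thus the more abundant of the pair in every sample, and in the shCTCF group the inhibitor transcript was.

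The other genes of the SREBP machinery were taken as a list. Of 6 genes (Scap, Insig2, Srebf1, Mbtps1, Mbtps2 and Rnf139), 3 were lower, none was higher and 3 did not pass. Their median log2 fold change was -0.47 on FPKM. Over all genes tested on FPKM, 44.2% were lower and 28.8% higher. With each sample scaled to the same median, 1 of the 6 genes was higher and 3 were lower, and their median was -0.31. Srebf1, which encodes the regulator of fatty acid synthesis related to SREBP2, fell from 21.6 ± 2.80 to 10.3 ± 0.531 FPKM (log2 fold change -0.99, SE 0.10, limma adjusted p = 6.7e-05). The escort gene Scap fell by 0.52 on the log2 scale (SE 0.09), but did not pass with the highest row per symbol alone (-0.58, SE 0.31, adjusted p = 0.143), and the site-1 protease gene Mbtps1 by 0.55 (SE 0.07). Insig2, the constitutive relative of Insig1, was at 17.1 ± 4.13 and 18.1 ± 0.748 FPKM (log2 fold change 0.10, SE 0.17), and its groups overlapped; without control replicate 2 its sign turned (-0.10). Rnf139, which encodes a sterol-linked ubiquitin ligase, was at 7.95 ± 3.01 and 12.1 ± 0.547 FPKM (limma adjusted p = 0.0515). It passed as higher without control replicate 1, 2 or 3 (0.76, 0.30 and 0.79, adjusted p = 0.034, 0.00532 and 0.0269), with median scaling (0.78, adjusted p = 0.0186) and with quantile normalization (0.77, adjusted p = 0.0143). Mbtps2, the site-2 protease gene, was at 5.86 ± 1.95 and 3.96 ± 0.328 FPKM (limma adjusted p = 0.107), and passed as lower without control replicate 2 (-0.69, adjusted p = 2.4e-04). On counts these 2 genes alone of the 6 had enough fragments for a test, and both passed, Rnf139 as higher (0.67, edgeR adjusted p = 0.00553) and Mbtps2 as lower (-0.45, edgeR adjusted p = 0.03).

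**Figure D2:**
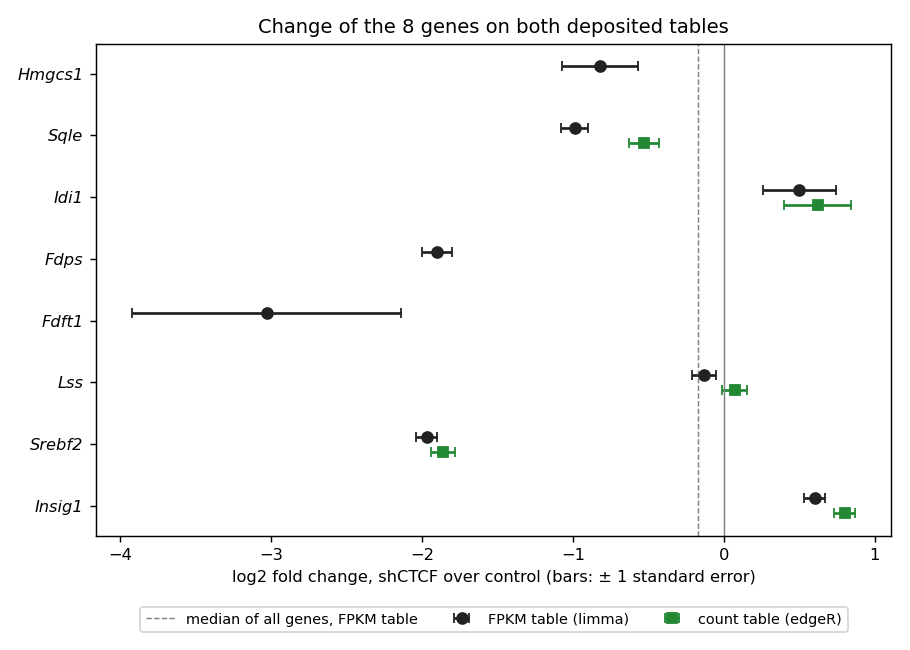
Log2 fold change of each gene, shCTCF over control (horizontal axis), from the FPKM table (circles) and, for the 5 genes with enough counts, from the count table (squares); bars are 1 standard error, and the dashed line is the median of all genes on FPKM, -0.17. Srebf2, Insig1 and Idi1 lie on the same side on both tables, Sqle is lower on both but by less on counts, and Lss lies near 0 on both.

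The enzymes that build the isoprenoid units begin with those of the mevalonate steps. Hmgcs1, which encodes the synthase that makes HMG-CoA, had 3.20, 5.66 and 4.001 FPKM in the control samples and 1.09, 2.26 and 2.76 FPKM in the shCTCF samples. All 3 shCTCF samples lay under the lowest control sample, but the gap was small beside the spread. The log2 fold change was -0.82 (SE 0.25, 95% interval -1.40 to -0.23, limma adjusted p = 0.0191), and it was -0.57 without shCTCF replicate 1 (adjusted p = 0.0535). The value is a sum over 2 transcript accessions, each placed at 2 loci of an unplaced part of chromosome 13 (chr13_random:114527-132436 and chr13_random:308437-326346 in mm9, minus strand), and the 2 accessions share 98.4% of their exon bases. At the first locus one accession held 2.71, 5.66 and 0 FPKM in the control samples and 0 in all shCTCF samples, and the other held 0.444, 0 and 3.85 FPKM and then 1.06, 2.26 and 2.58 FPKM. Taken alone, the row with the highest mean gave a log2 fold change of 0.59 (SE 0.59, adjusted p = 0.409), so the direction for Hmgcs1 rests on summing the accessions. No fragment was counted for it in any sample.

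The next enzymes are not among the 8 genes and were taken from a list of 13 other enzymes of the pathway. Pmvk, phosphomevalonate kinase, fell from 21.6 ± 3.65 to 8.98 ± 0.646 FPKM (log2 fold change -1.17, SE 0.12, limma adjusted p = 6.8e-05). Mvk and Mvd, the kinase before it and the decarboxylase after it, also passed as lower, by 0.60 (SE 0.21) and 0.44 (SE 0.11) on the log2 scale, but neither passed when the samples were scaled to the same median (adjusted p = 0.0957 and 0.0758). With the highest row per symbol alone, the change of Mvk was -0.08 (adjusted p = 0.671). It was -0.37 without control replicate 2, and Mvk did not pass with no filter on low values (adjusted p = 0.0652) or without shCTCF replicate 2 (adjusted p = 0.109) or shCTCF replicate 3 (adjusted p = 0.0768).

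Idi1, the isomerase that converts isopentenyl into dimethylallyl diphosphate, was called higher on counts only. Idi1 (chr13:8884852-8891642, plus strand, 5 exons) had 3.73, 1.64 and 4.15 FPKM in the control samples and 5.18, 4.16 and 4.66 FPKM in the shCTCF samples. Control replicate 2, the shallowest sample, was the lowest, and control replicate 3 was nearly level with shCTCF replicate 2. The log2 fold change of 0.50 (SE 0.24, 95% interval -0.07 to 1.07) did not pass on FPKM (limma adjusted p = 0.101). It was 0.20 without control replicate 2 (adjusted p = 0.131) and passed when the samples were scaled to the same median (0.64, adjusted p = 0.0407). The counts were 125, 14 and 149 in the control samples and 169, 115 and 162 in the shCTCF samples, or 15.4 ± 6.65 and 26.5 ± 4.15 CPM. There Idi1 passed as higher (log2 fold change 0.62, SE 0.22, edgeR adjusted p = 0.0228), but not without shCTCF replicate 1 (0.51, adjusted p = 0.104), without shCTCF replicate 3 (0.67, adjusted p = 0.0554) or with scaling by library size only (0.45, adjusted p = 0.0716).

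Fdps, which encodes farnesyl diphosphate synthase at the branch point towards sterols and prenylated proteins, was the most abundant of the 8 transcripts in the control group. Fdps (chr3:88897510-88905889, minus strand, 10 or 11 exons in its 2 accessions) had 51.0, 56.0 and 54.3 FPKM in the control samples and 12.6, 12.7 and 15.8 FPKM in the shCTCF samples. The groups were far apart. The mean fell 3.93-fold, from 53.8 ± 2.55 to 13.7 ± 1.82 FPKM, with a log2 fold change of -1.90 (SE 0.10, 95% interval -2.14 to -1.67, limma adjusted p = 1.7e-06), and 2.24% of the genes tested had a lower one. The whole FPKM value came from 1 of the 2 accessions, the other being listed at 0. This change could not be checked on counts: the 2 accessions share 85.2% of their exon bases, a fragment that overlapped both was assigned to neither, and 0 to 5 counts were left per sample.

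After the branch point, 3 enzymes lead from farnesyl diphosphate to lanosterol. Fdft1, squalene synthase, had 18.6, 18.5 and 16.8 FPKM in the control samples and was listed at 0, 11.5 and 0 FPKM in shCTCF replicates 1 to 3. The 1 shCTCF sample with a value lay under all controls, and the other two were at 0. The fitted log2 fold change was -3.03 (SE 0.89, 95% interval -5.09 to -0.96, limma adjusted p = 0.0155). Its size depends on the pseudocount (-7.42 with 0.01), and it did not pass without shCTCF replicate 1 (-2.42, adjusted p = 0.064) or without shCTCF replicate 3 (-2.42, adjusted p = 0.0593). A value of 0 beside at least 10 FPKM in another sample of the same group occurred for 26 of the 9976 genes (0.26%), and 0 of 13 housekeeping genes were listed at 0. The gene (chr14:63763988-63798415, minus strand) has 2 accessions that share 80.0% of their exon bases, 20.9% of its exon bases overlap Ctsb on the other strand, and no fragment was counted for it, so whether the transcript was lost in these 2 samples could not be checked.

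Sqle, squalene epoxidase, which catalyses the first oxygen-dependent step and is a control point of the pathway, fell on both tables. Sqle (chr15:59146647-59162748, plus strand, 11 exons) had 36.9, 29.7 and 33.4 FPKM in the control samples and 16.5, 16.5 and 15.8 FPKM in the shCTCF samples, which were tightly grouped below all controls. The mean fell 2.05-fold, from 33.3 ± 3.58 to 16.3 ± 0.406 FPKM (log2 fold change -0.99, SE 0.09, 95% interval -1.20 to -0.78, limma adjusted p = 3.2e-05). The counts were 1243, 245 and 1223 in the control samples and 589, 577 and 744 in the shCTCF samples, or 161 ± 22.1 and 113 ± 4.40 CPM. The fall was smaller there, with a log2 fold change of -0.53 (SE 0.10, edgeR adjusted p = 4.7e-04).

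Lss, lanosterol synthase, which closes the sterol rings, showed no detectable change. Lss (chr10:75994350-76019884, plus strand, 22 exons) had 12.5, 13.9 and 12.8 FPKM in the control samples and 11.8, 12.3 and 11.5 FPKM in the shCTCF samples. All 3 shCTCF samples lay under the controls, by less than the range within either group, and the log2 fold change was -0.13 (SE 0.08, 95% interval -0.31 to 0.05, limma adjusted p = 0.172). On counts the groups overlapped, at 134 ± 8.10 and 139 ± 5.45 CPM (log2 fold change 0.07, SE 0.08, edgeR adjusted p = 0.487), so the sign was not the same on the 2 tables. The FPKM ratio of Fdps to Lss went from 4.12 ± 0.108 in the control group to 1.16 ± 0.184 in the shCTCF group, where the transcript of Fdps still lay above that of Lss in every sample.

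The enzymes that turn lanosterol into cholesterol were also mixed. Of the 13 other enzymes of the pathway, 12 passed the filter on low values. Among these, 7 were lower, 3 were higher and 2 did not pass, with a median log2 fold change of -0.48 on FPKM. The shares over all genes tested were 44.2% lower and 28.8% higher. Lbr, a sterol reductase that is also a receptor of the nuclear lamina, had 81.7, 85.3 and 74.8 FPKM in the control samples and 14.8, 15.5 and 13.4 FPKM in the shCTCF samples (log2 fold change -2.39, SE 0.08, limma adjusted p = 2.7e-07, and -2.28 on counts). Cyp51, the lanosterol demethylase, fell from 23.0 ± 1.44 to 6.56 ± 0.423 FPKM (-1.67, SE 0.09, and -1.61 on counts). Dhcr7, a reductase of the last steps, fell by 1.21 (SE 0.11) on the log2 scale, and Nsdhl, a sterol dehydrogenase, by 0.53 (SE 0.10).

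The 3 enzymes that rose belong to different stages. Hsd17b7, a sterol ketone reductase, was low in the control group, at 1.08, 0.553 and 1.06 FPKM, and had 4.07, 3.38 and 3.95 FPKM in the shCTCF group (log2 fold change 1.35, SE 0.15, limma adjusted p = 9.9e-05, and 2.04 on counts). Acat2, which makes acetoacetyl-CoA at the entry of the pathway, rose from 6.59 ± 0.339 to 10.8 ± 1.54 FPKM (0.63, SE 0.11), and Sc5d, a sterol desaturase, from 8.78 ± 1.28 to 12.2 ± 0.464 FPKM (0.44, SE 0.11). Msmo1, a sterol methyl oxidase, was at 30.8 ± 5.14 and 35.7 ± 1.35 FPKM (limma adjusted p = 0.134) and passed as higher on counts (0.37, edgeR adjusted p = 0.0104), while its log2 fold change on FPKM was 0.22, and 0.08 without control replicate 2. Ebp, a sterol isomerase, was at 13.5 ± 1.65 and 11.1 ± 0.737 FPKM (limma adjusted p = 0.0632), with overlapping groups, and passed as lower without control replicate 1 (-0.33, adjusted p = 0.0262). With median scaling and quantile normalization the change of Ebp was -0.08 in each case (limma adjusted p = 0.54 and 0.52). On counts Ebp did not pass (-0.06, edgeR adjusted p = 0.688). Tm7sf2, the reductase that shares the reaction of Lbr, was listed at 0 FPKM in all samples but had 32, 12 and 35 counts in the control samples and 4, 7 and 20 in the shCTCF samples (log2 fold change -1.45, SE 0.42, edgeR adjusted p = 0.00828). Counted together with the 6 enzymes among the 8 genes, 18 enzymes of the pathway could be tested on FPKM. Among these, 11 were lower, 3 were higher and 4 did not pass, beside 44.2% lower and 28.8% higher over all genes tested. This balance depended on the scaling: with each sample scaled to the same median, 5 of the 12 other enzymes were lower and 4 higher, in place of 7 and 3, as Mvk and Mvd no longer passed and Msmo1 did.

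**Figure D3:**
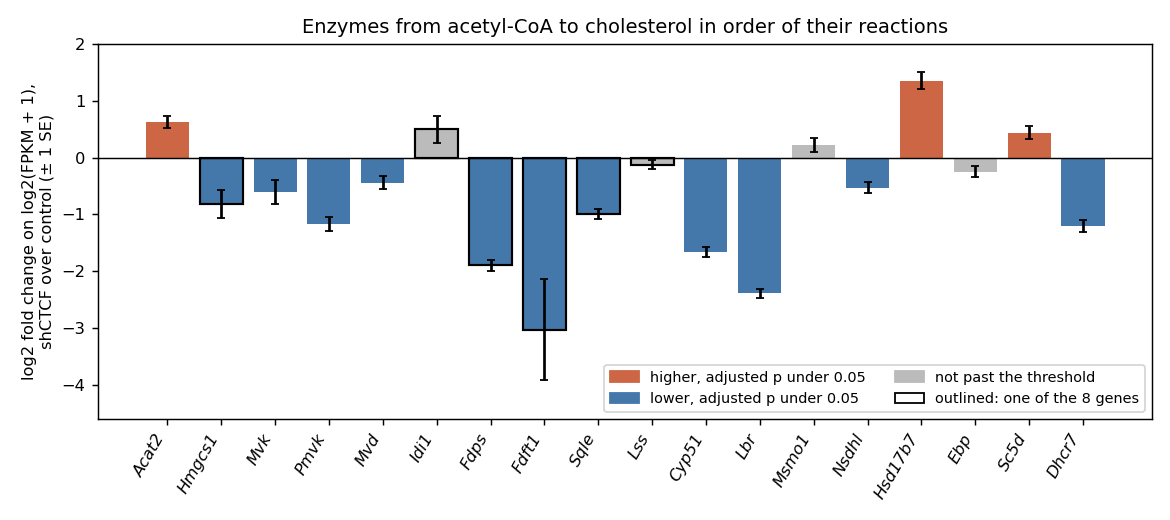
Log2 fold change on log2(FPKM + 1), shCTCF over control (vertical axis, bars from 0, with 1 standard error) for the 18 enzymes tested, from left to right in the order of their reactions from acetyl-CoA to cholesterol. The lowest bars are Fdft1 (-3.03, with 2 samples listed at 0), Lbr (-2.39), Fdps (-1.90) and Cyp51 (-1.67), and the highest is Hsd17b7 (1.35).

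The order of the 8 transcripts changed between the groups. In the control group the mean FPKM fell from Fdps (53.8) through Srebf2 (38.8), Sqle (33.3), Insig1 (28.3), Fdft1 (17.9) and Lss (13.1) to Hmgcs1 (4.29) and Idi1 (3.17), and the sample ranges overlapped only between Hmgcs1 and Idi1. In the shCTCF group the order was Insig1 (43.5), Sqle (16.3), Fdps (13.7), Lss (11.9) and Srebf2 (9.16), whose ranges did not overlap between neighbours, followed by Idi1 (4.67), Fdft1 (listed at 0 in 2 samples) and Hmgcs1 (2.04), whose neighbouring ranges did. Insig1 therefore moved from the fourth place to the first, and Fdps and Srebf2 left the first and second places. The gap between Sqle and Fdps in the shCTCF group was very narrow, at 15.8003 and 15.7938 FPKM in shCTCF replicate 3. The FPKM ratio of Srebf2 to Srebf1 went from 1.82 ± 0.186 to 0.890 ± 0.0988, with no overlap between the groups.

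The loss of counts for Hmgcs1, Fdps and Fdft1 was shared by many genes with several overlapping transcript accessions. Of the 4723 genes tested on FPKM that had several accessions, 1167 (24.7%) had 0 counts in every sample, against 41 of 5253 (0.8%) of the genes with 1 accession. Sqle, Idi1, Lss, Srebf2 and Insig1 have 1 accession each. Their changes could therefore be set side by side on both tables, while the falls of Hmgcs1, Fdps and Fdft1 rest on FPKM alone. Among related genes, Mvk, Mvd, Scap, Srebf1, Mbtps1, Insig2, Stard4, Acly, Gpam, Rabggta, Rabggtb and Dhdds also had too few counts for a test.

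Genes of sterol uptake and transport moved in both directions. Of 5 genes, all above the filter on low values, 3 were higher and 2 lower, beside 28.8% and 44.2% of all genes tested on FPKM. The lower ones were Tmem97, which encodes a sterol-responsive membrane protein (69.2 ± 3.97 to 26.8 ± 2.89 FPKM, log2 fold change -1.34, SE 0.09), and Stard4, a sterol carrier (-0.36, SE 0.11). Stard4 did not pass when the samples were scaled to the same median (adjusted p = 0.145), nor without control replicate 1, control replicate 3 or shCTCF replicate 1 (adjusted p = 0.0624, 0.0594 and 0.0677). The higher ones were Npc1 (33.5 ± 0.599 to 103.8 ± 1.84 FPKM, 1.61, SE 0.06) and Npc2 (1.04, SE 0.09), whose products release cholesterol from lysosomes, and Scarb1, a lipoprotein receptor (0.72, SE 0.08). The value of Scarb1 was 2.38 with the highest row per symbol, and it did not pass on counts (0.63, SE 0.40, edgeR adjusted p = 0.182), where it had 2 to 38 fragments per sample.

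Fatty acid synthesis, the province of SREBP1, was lower for most of its genes. All 11 listed genes were tested on FPKM, of which 9 were lower and 2 were higher, beside 44.2% and 28.8% of all genes tested. The median log2 fold change of the 11 genes was -0.98. Scd2, the desaturase with the highest level, had 264.4, 248.2 and 250.1 FPKM in the control samples and 69.2, 72.7 and 71.1 FPKM in the shCTCF samples (log2 fold change -1.83, SE 0.06, limma adjusted p = 1.6e-07). The desaturase Fads2 fell by 1.99 (SE 0.10), the acyltransferase Gpam by 1.44 (SE 0.10) on the log2 scale. Scd1, a further desaturase gene, fell by 1.41 (SE 0.11), and Acly, which supplies cytosolic acetyl-CoA to both pathways, fell by 0.70 (SE 0.07). The fatty acid synthase gene Fasn passed as higher at 14.4 ± 1.24 and 18.0 ± 1.55 FPKM (0.30, SE 0.10, limma adjusted p = 0.0226), but not without shCTCF replicate 1 (0.23, adjusted p = 0.0855), control replicate 1 (0.26, adjusted p = 0.0725) or control replicate 3 (0.27, adjusted p = 0.0709). With median scaling and quantile normalization Fasn passed as higher on FPKM (0.47 and 0.48, limma adjusted p = 0.00351 and 0.00287). On counts Fasn was higher too (0.50, SE 0.09, edgeR adjusted p = 3.1e-04). The elongase gene Elovl5 rose from 37.4 ± 5.82 to 126.6 ± 3.07 FPKM (1.74, SE 0.11).

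**Figure D4:**
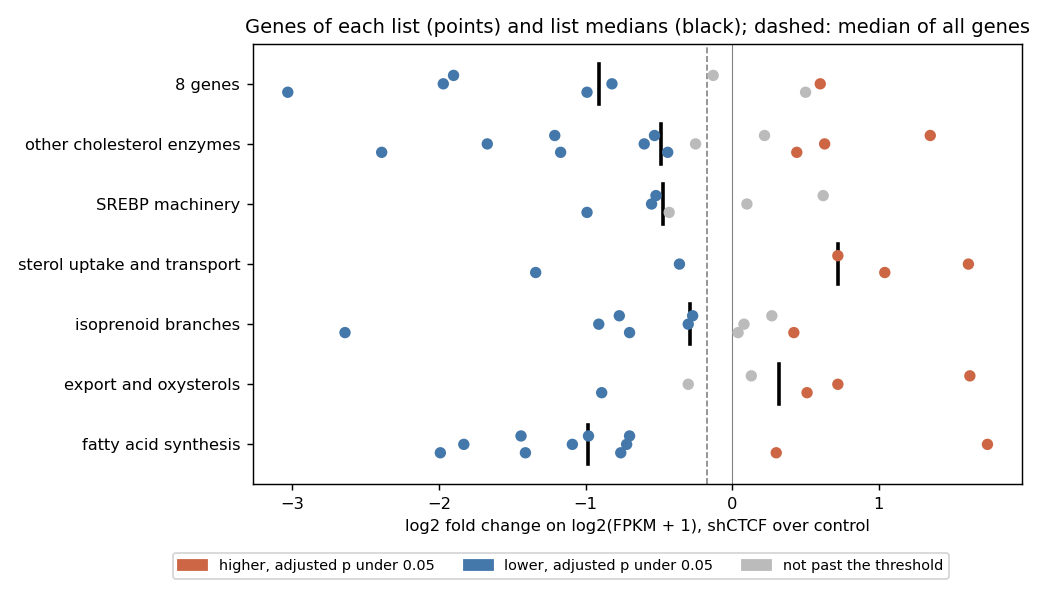
Log2 fold change on log2(FPKM + 1), shCTCF over control (horizontal axis), of each tested gene (points, coloured by call) in the 8 genes and 6 related lists; black bars are list medians and the dashed line is the median of all genes, -0.17. The medians of the 8 genes (-0.90) and of fatty acid synthesis (-0.98) are the furthest to the left, and those of uptake and transport (0.72) and of export and oxysterols (0.32) lie to the right of 0.

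The genes whose profile over the 6 samples was most like that of each of the 8 genes were sought among 7835 genes outside the lists whose mean was 5 FPKM or more, as the smallest root mean square difference between mean-centred log2(FPKM + 1) values. For Srebf2 it was Mthfd1, a folate enzyme gene (difference 0.021, against a median of 0.894 over all candidates), which had 56.6, 59.8 and 54.8 FPKM in the control samples and 13.2, 14.8 and 13.9 FPKM in the shCTCF samples. For Sqle it was Sp1, which encodes a transcription factor that binds GC boxes (0.024), for Insig1 Spryd3 (0.031), for Lss Hadha, a gene of mitochondrial fatty acid oxidation (0.009), for Fdps Vash1 (0.053) and for Idi1 Pdcd10 (0.069). The matches of Hmgcs1 with Manbal (0.140) and of Fdft1 with Dolpp1 (0.410) were looser. Dolpp1 was listed at 0 in the same 2 samples as Fdft1, with 9.87, 11.04 and 9.55 FPKM in the control samples and 5.02 FPKM in shCTCF replicate 2. The profiles span 2 groups of 3 samples, so a similar difference between the groups is enough to give a small value.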

How the data were processed

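Per the labels, stranded mRNA libraries were made from 3 control and 3 shCTCF samples of FGSCs, and all 6 were used. Reads were aligned by the authors to mm9. The deposited counts are whole fragments per RefSeq transcript accession, made by the authors with featureCounts 1.6.2 without strand and without normalization, and a fragment that overlapped several accessions was assigned to none. The FPKM values were calculated by the authors with Cufflinks 2.2.1 and are scaled to transcript length and depth. The submitters' processing notes name HISAT2 as the aligner.

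Accessions were given symbols with a RefSeq gene table of GRCm38.p6, used for names and promoters only (41186 of 41388 accessions with counts and 41685 of 41876 FPKM rows matched, and at most 0.603% of a sample lay in unmatched ones). Values were summed per symbol. Coordinates of genes are those of mm9, counted from 1. The FPKM test used limma 3.58.1 in R 4.3.3 (lmFit and eBayes with trend) on log2(FPKM + 1) for genes whose mean was 1 FPKM or more, and fold changes on this scale understate the change of low genes. Counts were tested with edgeR 4.0.16 (quasi-likelihood test, filterByExpr, TMM). Tests were two-sided, and Benjamini-Hochberg adjustment covered every gene tested, with a threshold of 0.05. CPM were computed with TMM-scaled library sizes. A count of 3, taken as the floor, was 0.426 to 1.78 CPM of the unscaled totals, and control replicate 2 was the least precise sample.

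The 8 genes, the gene lists and the marker lists were chosen with earlier results of these data known, so counts over them are descriptions, and no set test was run. Some genes of the lists are not reported here and were left out of the counts and medians of their lists. Named genes are the 8 genes, members of the lists by role, Ctcf, and 1 nearest profile per gene. The alternatives were pseudocounts of 0.1 and 0.01, other filters, median and quantile scaling, eBayes without trend, the highest row per symbol, a replicate block, DESeq2 1.42.0, scaling by library size, and leaving out each replicate in turn. The files held no columns that could not be assigned (0 in each table).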

Additional observations from a re-analysis of the deposited data

How the results depend on the processing

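The number of the 8 genes called on FPKM was 6, and 5 to 7 under the other settings with all samples, 4 to 7 when each replicate was left out in turn. On counts it was 4, and 3 to 4 under every alternative. Calls over all pathway lists numbered 40, 33 to 41 under the other settings and 37 to 42 without 1 replicate. Srebf2, Insig1, Fdps and Sqle kept direction and call under every alternative run, with leave-one-out log2 fold changes on FPKM of -2.01 to -1.93, 0.55 to 0.64, -2.0 to -1.85 and -1.06 to -0.91. The number called higher on FPKM was 1, and 2 with median scaling, quantile normalization, the block or without control replicate 3, by adding Idi1 (0.20 to 0.68 over the replicates left out). The number called lower on FPKM was 5, and 3 without shCTCF replicate 1 (Hmgcs1 -0.99 to -0.57, Fdft1 -4.24 to -2.42 over the replicates left out). The number called higher on counts was 2, and 1 with library size only, without shCTCF replicate 1 or without shCTCF replicate 3.

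Signs reversed for Hmgcs1 with the highest row per symbol (0.59), and for Lss, never called, with median scaling (0.04) and quantile normalization (0.04) on FPKM and with library size only on counts (-0.10). Among related genes, they reversed for Insig2 (-0.10 with the highest row, -0.10 without control replicate 2, range over the replicates left out -0.10 to 0.22), Ggps1 (-0.03 with the highest row, -0.06 without control replicate 2, -0.02 without shCTCF replicate 1, range -0.06 to 0.12), Pggt1b (-0.02 without control replicate 2, range -0.02 to 0.19), Rabggtb (-0.07 with the highest row) and Icmt (0.28 with the highest row). The cause was not tested. Of 178 alternative fold changes of the 8 genes, 164 kept direction and side of the threshold, as did 689 of 741 of the related genes.

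Median scaling moved the median of all genes from -0.17 to -0.01 and the share of calls that were higher from 39.5% to 49.1%, and library size only moved them on counts from -0.02 to -0.19 and from 50.3% to 41.5%. With median scaling, the median of the 8 genes was -0.75. The replicate numbers did not pair the samples: deviations of same-numbered samples had correlations of -0.041, 0.018 and 0.0395 on FPKM. With the replicate number as a block, 7137 genes were called on FPKM in place of 7281 and 4889 on counts in place of 5074, and 7 of the 8 genes on FPKM and 4 on counts. Among the 5 genes tested on counts, Idi1 had the fewest, with 14 in control replicate 2.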

Other observations

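The branches that use the isoprenoids made by Fdps held genes that moved in both directions. Of 11 listed genes 10 were tested on FPKM, of which 6 were lower, 1 was higher and 3 did not pass, with a median log2 fold change of -0.29 (limma), while 44.2% of all genes tested were lower. With each sample scaled to the same median, 4 were lower and 2 higher, and the median was -0.12. Rabggta, a subunit of the enzyme that attaches geranylgeranyl groups to Rab proteins, had 13.4, 15.4 and 12.8 FPKM in the control samples and 1.23, 1.35 and 1.58 FPKM in the shCTCF samples (log2 fold change -2.64, SE 0.11, limma adjusted p = 6.3e-07), while its partner subunit Rabggtb was at 27.3 ± 4.47 and 32.8 ± 1.81 FPKM (adjusted p = 0.075, and 0.0225 without control replicate 3). No fragment was counted for Rabggta or Rabggtb in any sample, so their values rest on FPKM alone. Fntb, a farnesyltransferase subunit, fell by 0.70 (SE 0.15) and the CAAX protease gene Rce1 by 0.91 (SE 0.13) on the log2 scale, although Rce1 fell by 0.34 on counts (edgeR adjusted p = 0.0322). Dhdds, a subunit of the enzyme that makes the precursor of dolichol, rose from 135.8 ± 1.65 to 181.5 ± 2.95 FPKM (0.42, SE 0.05).

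Of 11 genes of sterol export, storage and oxysterols, 6 were tested on FPKM. Among these, 3 were higher, 1 was lower and 2 did not pass, with a median log2 fold change of 0.32. Over all genes tested on FPKM, 28.8% were higher and 44.2% lower. The sterol exporter gene Abcg1 had 10.5, 10.99 and 9.23 FPKM in the control samples and 34.5, 33.4 and 32.4 FPKM in the shCTCF samples (1.62, SE 0.08, limma adjusted p = 1.7e-06). Mylip, which encodes a ubiquitin ligase induced by sterols, rose by 0.51 (SE 0.14), and Apoe by 0.72 (SE 0.17) but not with its highest row alone (adjusted p = 0.183) or on counts (0.73, edgeR adjusted p = 0.223). Soat1, the cholesterol esterification enzyme of most tissues, fell from 33.1 ± 3.42 to 17.4 ± 0.298 FPKM (-0.89, SE 0.09). Cyp27a1 and Cyp7b1 were listed at 0 in all samples.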
